A study of Mus musculus with 32 samples.

Results

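The genes described here mark lymphocytes, in the epididymal fat (epididymal white adipose tissue, eWAT) and the liver of mice given corticosterone (cort) on diets of different protein content. They are 37 genes chosen by name: 14 T cell genes, 9 genes of natural killer (NK) and other cytotoxic cells, 10 B cell genes and 4 genes shared by several kinds of lymphocyte. All 37 were found among the 47643 Ensembl genes counted. The mice were male C57BL/6 mice by the labels, C57BL/6J in the study's methods, 10 weeks old, and carried no engineered allele. For 7 days they took cort or vehicle (veh, dilute ethanol) with their drinking water, and ate a normal-protein diet (NPD, 20% of energy from protein) or a high-protein diet (HPD, 60% of energy from protein). By the study's methods the HPD held less corn starch, to match the diets in energy. A difference between diets therefore cannot be told apart as one of protein or of carbohydrate. Each tissue had 4 groups of 4 libraries (Veh NPD, Cort NPD, Veh HPD, Cort HPD), 32 libraries in all. Whole tissue was sequenced, so a lower level of a lymphocyte gene cannot be told apart as fewer cells of that kind or as less RNA in each cell.

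Lymphocytes are the cells of adaptive immunity together with their innate relatives. T cells recognise fragments of proteins through the T cell receptor, which signals through the CD3 chains; CD4 and CD8 are the co-receptors that divide helper from cytotoxic T cells. NK cells kill without an antigen receptor, with granzymes and perforin, while B cells and the plasma cells that form from them make antibodies. Fat and liver both hold resident lymphocytes, and glucocorticoids such as cort act on these cells through the glucocorticoid receptor and are used as drugs against inflammation.

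Libraries were made with QuantSeq, which reads a transcript near its 3′ end, and held 9794683 to 18057936 counts in eWAT and 8933307 to 17447524 in liver. Levels are in CPM, a gene's share of its library after TMM scaling within a tissue. Changes are log2 fold changes ± standard error (SE) from edgeR's quasi-likelihood test with Benjamini-Hochberg adjusted p-values over all genes tested in the tissue. A gene is said to have risen or fallen where its adjusted p-value was under 0.05. The labels do not say that the libraries of a group came from separate mice, so the p-values measure the spread between these libraries. Liver Veh HPD replicate 4, which the study removed as an outlier, was left out of the fits, and 15 liver libraries were used. As a check of the tissue labels, 8 adipocyte genes summed to between 29180 and 38300 CPM in eWAT and 46.3 to 103 CPM in liver, and 8 hepatocyte genes to between 56950 and 228600 CPM in liver and 915 to 3996 in eWAT. A single eWAT library stood apart: in Cort HPD replicate 4, epididymis and testis genes summed to 9868 CPM, against 0 to 11.8 CPM in the 15 others. For Ccr7 and Cd52 the effect on the HPD is given with and without that library, and for Klrb1c only levels are given without it. Other results include it unless stated, also where they rest on it.

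Lymphocyte genes were scarce. Of the 37, 26 had enough counts in eWAT to be tested and 11 had in liver. A gene can pass this filter through the group where it is highest, so the tested genes do not stand for all 37. Summed over the 14 T cell genes, eWAT held 22.3 ± 7.26 CPM in Veh NPD, 16.7 ± 0.365 in Veh HPD, 7.76 ± 1.62 in Cort NPD and 6.70 ± 1.30 in Cort HPD (SD, n = 4 each). The highest cort-treated fat library had 9.35 CPM and the lowest veh-treated one 13.4. Liver had 8.95 ± 1.32 CPM in Veh NPD (n = 4), 6.54 ± 2.25 in Veh HPD (n = 3), 1.90 ± 0.919 in Cort NPD (n = 4) and 2.04 ± 0.620 in Cort HPD (n = 4). All cort-treated liver libraries, at 0.949 to 3.08 CPM, were below all veh-treated ones, at 4.58 to 10.9.

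The NK and cytotoxic genes were also lower with cort in most libraries. Their sum was 12.3 to 36.1 CPM in Veh NPD eWAT and 16.8 to 23.9 in Veh HPD eWAT, against 2.21 to 4.01 in Cort NPD. Cort HPD eWAT had 2.39, 5.81 and 8.32 CPM in 3 libraries and 98.7 in replicate 4, the library with epididymal RNA; without the gene Klrb1c the 4 libraries had 2.13 to 7.90 CPM. In liver the range was 4.41 to 9.24 CPM over the 7 veh-treated libraries. Cort NPD had 0.681 to 0.847 and Cort HPD 1.98 to 4.51, its highest library just above the lowest of Veh HPD, at 4.41. In liver without Klrb1c and Ccl5, the sums were 2.45 to 5.84 CPM in Veh NPD and 2.51 to 3.57 in Veh HPD. They were 0.0757 to 0.486 in Cort NPD and 0.297 to 0.763 in Cort HPD, with no overlap between treatments. The B cell genes, by contrast, overlapped in fat: 172 to 571 CPM over the 8 veh-treated libraries and 178 to 399 over the 8 cort-treated ones. Ighm held most of these counts (57307, against 9326 for Igkc). The B cell genes other than Ighm, Igkc and Jchain summed to 1.79 to 32.7 CPM in Veh NPD and 0.158 to 4.45 in Cort NPD. On the HPD those genes summed to 2.63 to 4.28 CPM with veh and 1.58 to 3.55 with cort. In liver the sum of all B cell genes was 7.43 to 28.1 CPM in veh-treated and 3.10 to 7.13 in cort-treated libraries, with no overlap.

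**Figure D1:**
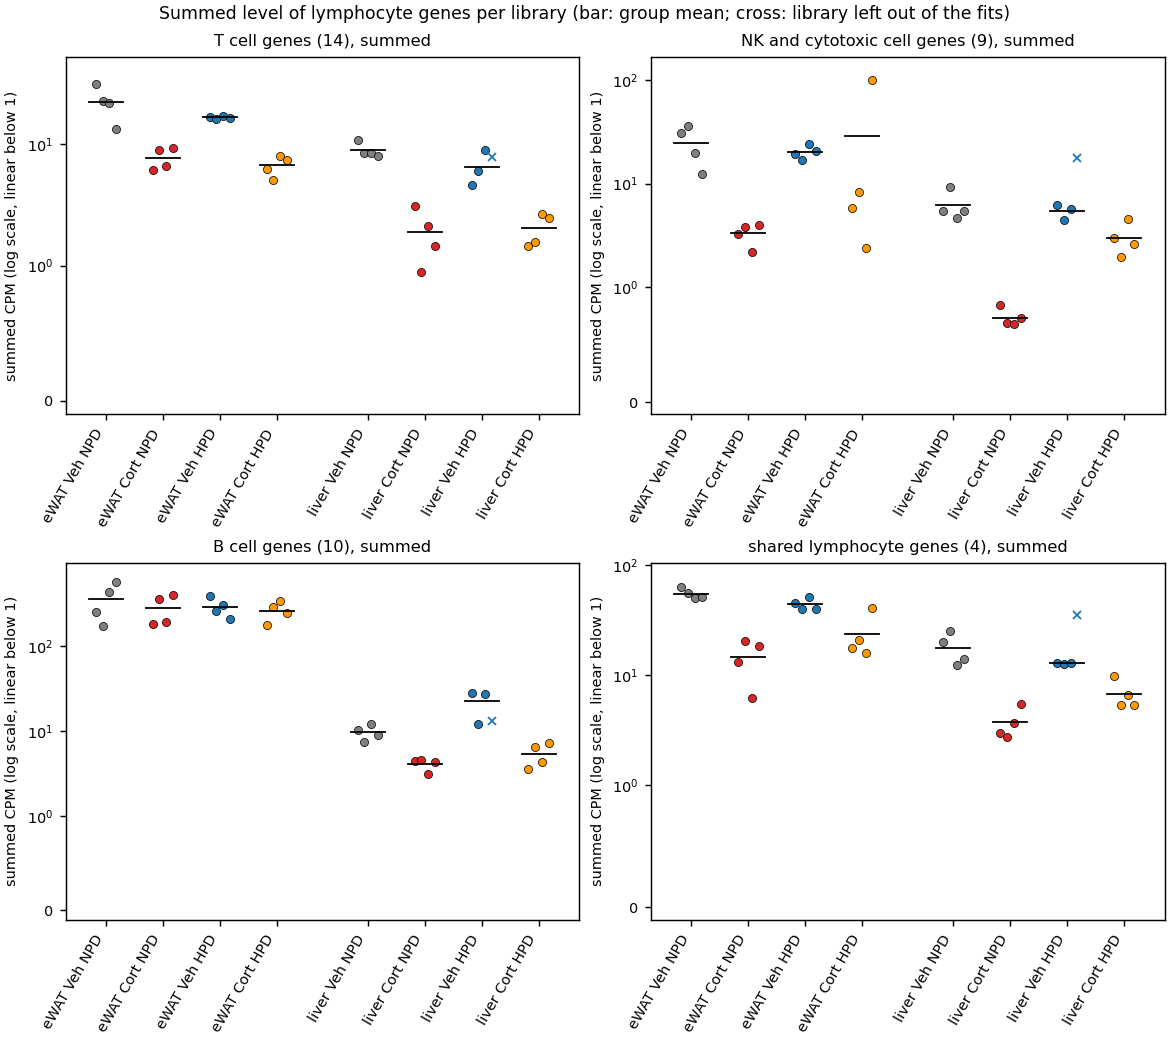
Summed level of each kind of lymphocyte gene in every library (vertical axis: summed CPM, log scale that turns linear below 1; horizontal axis: the 4 groups in eWAT and in liver). Points are libraries, bars are group means and the cross is the liver library left out of the fits. T cell sums of cort-treated fat (5.05 to 9.35 CPM) lie below those of veh-treated fat (13.4 to 31.1 CPM), whereas B cell sums of fat overlap, and the point at 98.7 CPM in the NK panel is Cort HPD replicate 4.

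In eWAT on the NPD, 6 of the 26 lymphocyte genes tested fell with cort and 0 rose; of all 15187 genes tested, 3.93% fell and 4.05% rose. The 6 were the T cell genes Trbc2 and Ccr7, the NK and cytotoxic genes Ccl5 and Il2rb, and Cd2 and Cd52. On the HPD 1 of 26 fell, Ccl5, and 0 rose, against 2.63% of all genes that fell and 3.46% that rose. On this diet 9 of the 26 had an unadjusted p-value under 0.05, 8 lower with cort and 1 higher. The 1 higher was an NK and cytotoxic gene. Klrb1c, of that kind, had 1473 counts in Cort HPD replicate 4, the library with epididymal RNA. The share of all genes under that unadjusted threshold was not counted, so these counts are not a result about the lymphocyte genes. For the mean of the cort effects on both diets, 8 of 26 fell and 0 rose, against 7.41% and 8.13% of all genes: the 6 above with Trbc1 and Nkg7. The median log2 fold change of this mean effect was -1.37 over the 26 genes, and -0.0152 over all genes tested.

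Among the T cell genes of eWAT, Trbc2 and Ccr7 fell with cort on the NPD, and Trbc1 for the mean of both diets. Trbc2, which encodes a constant segment of the T cell receptor beta chain (GRCm38, chromosome 6, 41546730 to 41548352, plus strand), was at 6.67, 4.84, 4.44 and 4.06 CPM in the libraries of Veh NPD and at 0.679, 0.727, 1.26 and 0.267 CPM in Cort NPD. In Veh HPD it was at 2.73, 3.08, 1.96 and 6.55 CPM, and in Cort HPD at 1.05, 3.05, 0.997 and 1.09. On the NPD the groups did not overlap, as held in that direction for 7 of the 26 lymphocyte genes and 7.39% of all genes. On the HPD replicate 2 of Cort HPD reached into the veh-treated range. On the NPD the log2 fold change was -2.75 ± 0.58 (adjusted p = 0.00273), and on the HPD it was -1.22 ± 0.55 (adjusted p = 0.217). The difference between these diets was itself not called (interaction 1.53 ± 0.78, adjusted p = 0.952).

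Trbc1, the neighbouring constant segment, was at 4.39, 1.19, 1.61 and 0.482 CPM in Veh NPD and 3.30, 1.46, 0.611 and 1.04 CPM in Veh HPD. Cort NPD had 0, 0.436, 0 and 0.534 CPM, and Cort HPD 0.565, 0, 0.665 and 0.0644. Its mean cort effect was a fall of 2.61 on the log2 scale (SE 0.83, adjusted p = 0.0314), and in neither diet alone was it called. The coding parts of Trbc1 and Trbc2 are near-identical, so reads may have been divided between them, and their separate values are uncertain. The call of Trbc1 was lost when any 1 of 5 libraries was left out (adjusted p up to 0.112).

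Ccr7, the chemokine receptor that guides lymphocytes into lymph nodes, was at 3.34, 2.75, 0.739 and 1.31 CPM in Veh NPD eWAT and at 0 in all 4 libraries of Cort NPD. With 121 counts against 0, it was at least 35.8-fold lower with cort on the NPD, taking 3 counts over the group as the floor (adjusted p = 0.00814). In Veh HPD it was at 0.571, 1.04, 2.45 and 0.714 CPM, and in Cort HPD at 0, 0, 0 and 1.03. The only Ccr7 counts in cort-treated fat came from Cort HPD replicate 4, the library with epididymal RNA, and without that library the fall on the HPD was called (adjusted p = 0.0228, against 0.387 with it). Whether the RNA of the other tissue had a part in these counts was not tested.

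Cd4, the helper T cell co-receptor, had few counts: 0.556, 1.41, 1.41 and 0.482 CPM in Veh NPD, 0.190, 1.15, 0.306 and 0 in Veh HPD, 0, 0, 0.237 and 1.25 in Cort NPD, and 0 in all 4 Cort HPD libraries. On the HPD this put it at least 7.87-fold lower with cort, and the mean effect was not called (adjusted p = 0.0706). Cd3d, Cd3e, Lck, Il7r and Cd28, 5 T cell genes with signalling, cytokine receptor or co-stimulatory roles, were not called on either diet or on average. Their mean cort effects ran from -1.84 for Cd3d (adjusted p = 0.154), through -1.18 for the kinase Lck, -1.14 for Cd3e and -1.10 for the interleukin-7 receptor Il7r, to -0.05 for the co-stimulatory receptor Cd28. Lck had 3, 0, 4 and 36 counts in Cort HPD, the 36 in replicate 4, with the epididymal RNA. Its effect without that library is not given. All 4 Cort HPD libraries were below all 4 Veh HPD libraries for Cd3d, as was the case for 3 of the 26 lymphocyte genes and 5.39% of all genes. The receptor alpha chain, Trac, was not called either, at 1.10 to 4.32 CPM in Veh NPD, 0 to 0.973 in Veh HPD, 0.473 to 2.58 in Cort NPD and 0 to 1.66 in Cort HPD.

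The remaining T cell genes were too scarce to test in fat. Cd3g had 36 counts over the 16 libraries, 29 of them in Veh NPD. Cd8a, a chain of the cytotoxic co-receptor, had 22 counts in Veh NPD and 3 in Cort NPD, a ratio of 6.51 (95% counting interval 1.96 to 34.0). Its partner Cd8b1 had 46 counts in Veh NPD, 28 of them in replicate 1, and 5 in Cort NPD, but 8 in Veh HPD and 13 in Cort HPD. Of the 13, 7 were in replicate 4, the library with epididymal RNA. Foxp3, the transcription factor of regulatory T cells, had 8 counts in Veh NPD, 10 in Veh HPD and 0 in the 8 cort-treated libraries.

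**Figure D2:**
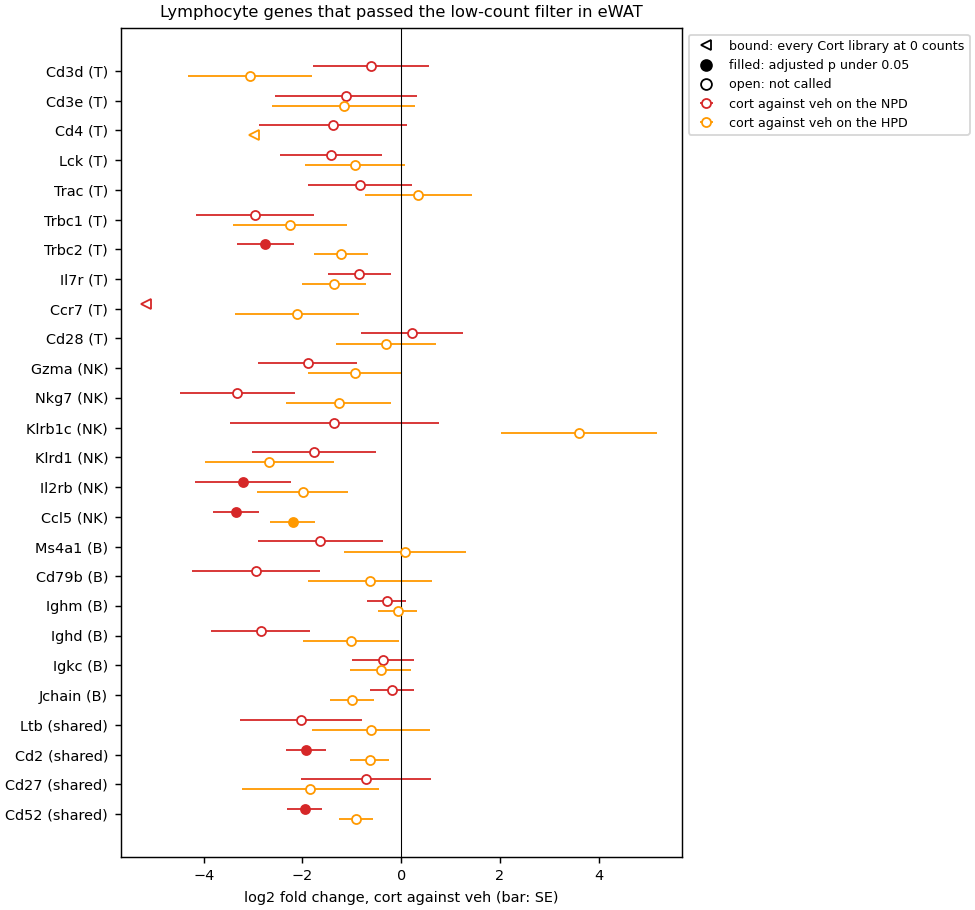
Log2 fold change of cort against veh in eWAT for the 26 lymphocyte genes that passed the low-count filter (horizontal axis: log2 fold change with SE; red: NPD, orange: HPD; filled: adjusted p under 0.05; open triangles: bounds for Ccr7 and Cd4 where every Cort library was at 0, of which Ccr7 was called). The filled points on the NPD are Trbc2, Il2rb, Ccl5, Cd2 and Cd52, between -3.34 and -1.93, and the one on the HPD is Ccl5, at -2.20.

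Among the NK and cytotoxic genes of fat, Ccl5 separated the treatments completely. Ccl5 encodes a chemokine that T and NK cells release and that draws further lymphocytes in. It was at 16.1, 19.7, 12.4 and 6.06 CPM in Veh NPD and 2.31, 0.582, 0.473 and 1.96 CPM in Cort NPD. Veh HPD had 9.08, 5.90, 13.8 and 4.93 CPM and Cort HPD 2.18, 1.37, 1.73 and 1.995 CPM. The 8 cort-treated libraries all lay below the 8 veh-treated ones, which held for no other lymphocyte gene tested in fat, and for 1.34% of all genes tested. Its log2 fold change on the NPD was -3.34 ± 0.47 (adjusted p = 3.005e-05), and the one on the HPD was -2.20 ± 0.45 (adjusted p = 0.00271), which limma voom did not call (adjusted p = 0.0641).

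Il2rb is the shared beta chain of the receptors for interleukin-2 and interleukin-15, on which NK cells depend. It was at 4.57, 3.87, 3.90 and 0.896 CPM in Veh NPD eWAT, 1.65, 3.39, 2.02 and 2.92 in Veh HPD, 0.679, 0, 0.710 and 0 in Cort NPD and 0.0807, 1.47, 0.266 and 0.708 in Cort HPD. On each diet all cort-treated libraries were below all veh-treated ones, as held for 7.39% of all genes on the NPD and 5.39% on the HPD. The fall on the NPD was 3.20 on the log2 scale (SE 0.97, adjusted p = 0.0372), and on the HPD the value was -2.00 ± 0.92 (adjusted p = 0.229). The call on the NPD was lost when any 1 of 6 libraries was left out (adjusted p up to 0.0933) and with limma voom (0.0575). The mean effect was -2.60 ± 0.67 (adjusted p = 0.00715) and stayed called without each library in turn.

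Nkg7 encodes a membrane protein of cytotoxic granules, and Gzma, a granzyme, is a protease that those granules carry. The 250 bases before the RefSeq start of each gene in GRCm38.p6 are shown because both genes fell with cort in liver, and Nkg7 in fat also, and because both hold AGAACA, the half-site that the glucocorticoid receptor is known to bind, in capitals. Nkg7 is at chr7:43436888-43437137 on the plus strand and Gzma at chr13:113100982-113101231 on the minus strand.
Nkg7: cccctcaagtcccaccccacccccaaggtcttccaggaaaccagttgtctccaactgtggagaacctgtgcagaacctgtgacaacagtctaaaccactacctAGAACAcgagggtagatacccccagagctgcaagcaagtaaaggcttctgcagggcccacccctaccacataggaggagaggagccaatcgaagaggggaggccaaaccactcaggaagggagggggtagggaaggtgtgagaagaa
Gzma: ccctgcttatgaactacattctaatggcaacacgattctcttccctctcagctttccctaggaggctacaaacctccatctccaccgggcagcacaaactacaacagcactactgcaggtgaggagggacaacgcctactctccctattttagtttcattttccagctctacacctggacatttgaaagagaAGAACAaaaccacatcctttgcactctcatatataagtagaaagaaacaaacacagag
The half-site begins 147 bases before the start of Nkg7 and 58 bases before that of Gzma. Promoters were at hand for 18 of the 37 genes, in 21 windows of 300 bases (250 before to 50 after a start). With both strands searched, AGAACA was in 4 of the 21, those of Cd8a, Gzma, Klrb1c and Nkg7, and in 19.0% of all 32851 windows of the table. The share among the 21 was thus like that of all windows, and the sequences shown were picked. Cd3d, which also fell in liver, lacked the half-site in its window. Cd8a, which holds it, was too scarce to test, and Klrb1c, which holds it too, was not called in fat. The full palindromic glucocorticoid response element was in none of the 21 and in 3 windows of the table. The octamer ATGCAAAT of immunoglobulin promoters and the ETS core CCGGAAGT were also in none of the 21, and in 1.74% and 3.89% of all windows. These are matches of letters and not measured binding.

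In eWAT, Nkg7 was at 5.13, 5.36, 0.941 and 0.827 CPM in Veh NPD and 0.204, 0.218, 0 and 0.801 in Cort NPD, without overlap. Veh HPD had 1.52, 2.09, 1.96 and 2.98 CPM and Cort HPD 1.94, 1.68, 0 and 0, so that 2 cort-treated libraries lay within the veh-treated range. The mean effect was called (-2.29 ± 0.79, adjusted p = 0.0485), and was lost when any 1 of 10 libraries was left out (adjusted p up to 0.101). Klrd1, a chain of an inhibitory NK receptor, was at 1.42, 2.46, 1.08 and 0.758 CPM in Veh NPD, 4.06, 1.20, 2.32 and 1.95 in Veh HPD, 0, 0.945, 0 and 0.712 in Cort NPD and 0, 1.58, 0 and 0 in Cort HPD. It was not called (mean effect -2.22 ± 0.91, adjusted p = 0.101). Without Cort HPD replicate 2, the only library of its group with counts, the mean effect was called (adjusted p = 0.00239). Gzma was not called in fat (-1.42 ± 0.69, adjusted p = 0.177).

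Klrb1c, which encodes the NK1.1 antigen of C57BL/6 NK cells, was at 0.403 to 0.968 CPM in Veh NPD eWAT, 1.71 to 2.26 in Veh HPD and 0 to 0.631 in Cort NPD. Cort HPD had 0.0807, 0.421 and 0.266 CPM in replicates 1 to 3 and 94.8 CPM, 1473 counts, in replicate 4. That library also held the epididymal RNA, and 413 exon bases of Klrb1c are shared with the gene model Gm44511 on the same strand. Whether either had a part in the value was not tested. With replicate 4 included, Klrb1c was not called in any comparison of fat, and its test without that library is not given. Replicates 1 to 3 of Cort HPD were all below the Veh HPD range. The other 3 cytotoxic genes were too scarce to test there. Ncr1, the NK receptor NKp46, had 10 counts in Veh NPD, all in replicate 1. In Veh HPD it had 48, of which 21 were in replicate 2 and 27 in replicate 4. It had 0 in the 8 cort-treated libraries, which made it at least 12.6-fold lower with cort on the HPD. That bound rests on replicates 2 and 4 of Veh HPD, as the others of that group were at 0. Gzmb had 19 counts in Veh NPD, 4 in Veh HPD, 6 in Cort NPD and 7 in Cort HPD, and perforin (Prf1) had 9 counts, all in Veh NPD replicate 1.

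**Figure D3:**
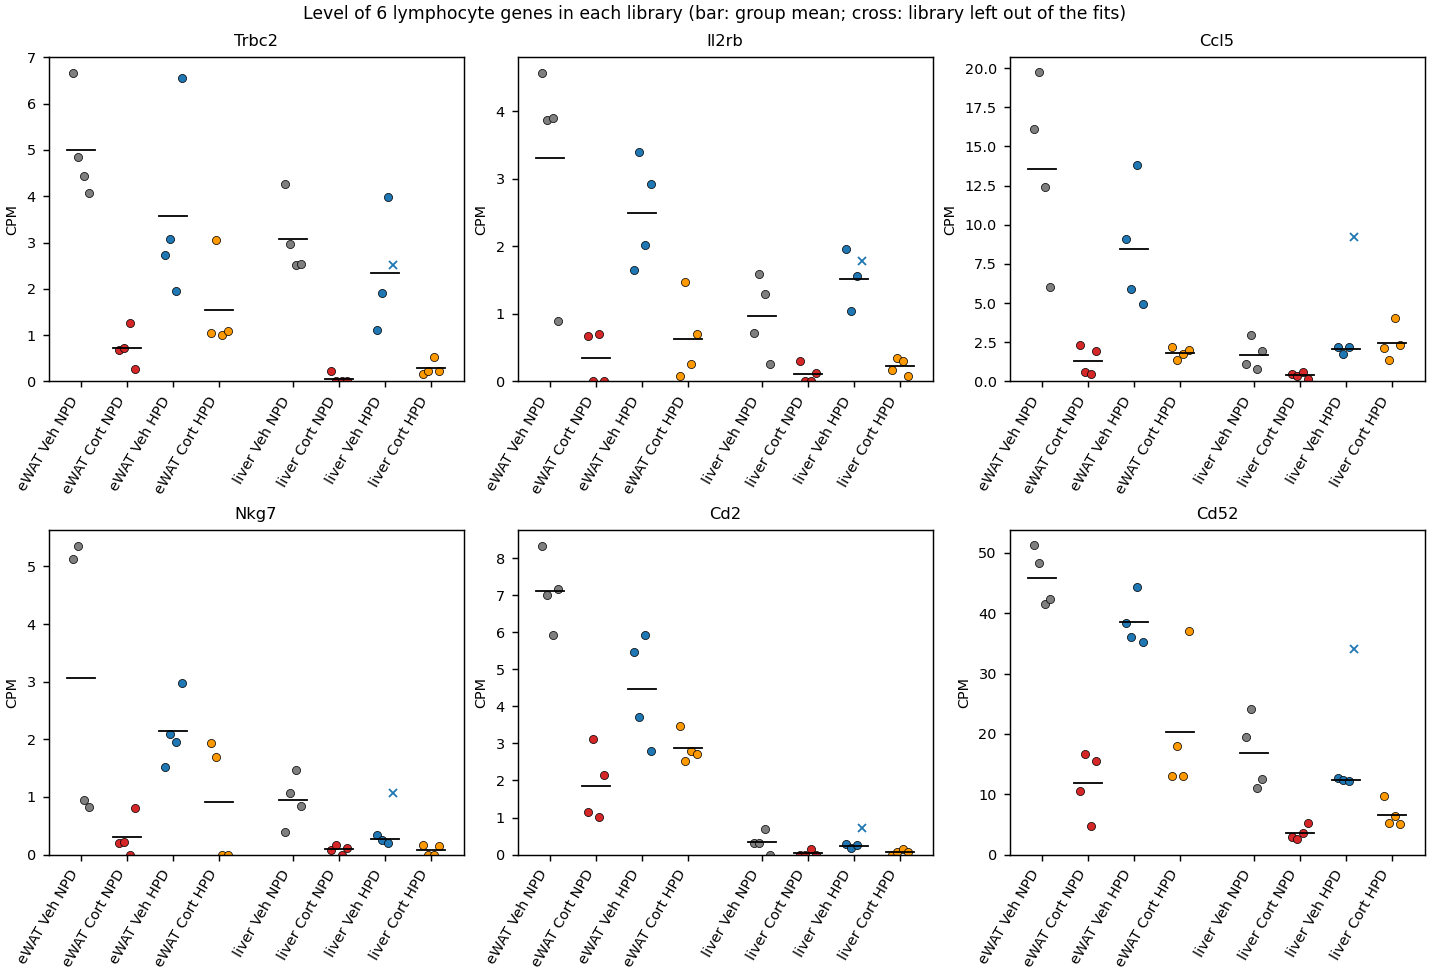
Level of 6 lymphocyte genes that were called in eWAT, in every library (vertical axis: CPM, linear from 0; horizontal axis: the 4 groups in eWAT and in liver). Points are libraries, bars group means, and the cross is the liver library left out of the fits. In fat the 8 cort-treated libraries of Ccl5 (0.473 to 2.31 CPM) lie below the 8 veh-treated ones (4.93 to 19.7 CPM), and Cd52 in Cort HPD replicate 4 (37.1 CPM) stands above the rest of its group.

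Of the 4 shared lymphocyte genes, 2 fell with cort in fat. Cd2, an adhesion molecule of T and NK cells, was at 8.34, 7.00, 5.91 and 7.16 CPM in Veh NPD and 1.15, 3.13, 1.03 and 2.14 CPM in Cort NPD, a fall of 1.93 on the log2 scale (SE 0.41, adjusted p = 0.00294). At 5.46, 3.71, 5.93 and 2.79 CPM in Veh HPD and 3.47, 2.53, 2.79 and 2.70 CPM in Cort HPD, it was not called on the HPD (-0.64 ± 0.40, adjusted p = 0.417). Its libraries separated by treatment on the NPD only, and the interaction was not called (1.29 ± 0.57, adjusted p = 0.919).

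Cd52 encodes a small surface glycoprotein of lymphocytes that other leukocytes carry too and that the epididymis is known to secrete. It was at 51.3, 48.2, 41.6 and 42.4 CPM in Veh NPD eWAT and 10.5, 16.6, 4.81 and 15.5 in Cort NPD, a fall of 1.95 on the log2 scale (SE 0.36, adjusted p = 0.00275). On the HPD it was at 38.5, 36.1, 44.4 and 35.3 CPM with veh and 13.1, 18.01, 13.0 and 37.1 with cort. The value of 37.1 was that of replicate 4, with the epididymal RNA; with this library the effect on the HPD was -0.92 ± 0.34 (adjusted p = 0.147), and without it -1.40 (adjusted p = 0.00184). The other shared genes were not called. Ltb, a subunit of lymphotoxin, was at 1.67, 0.521, 1.75 and 0.276 CPM in Veh NPD, 0.952, 0.627, 0.245 and 1.10 in Veh HPD, 0.407, 0.582, 0 and 0 in Cort NPD and 0.565, 0.421, 0.332 and 0.579 in Cort HPD. Cd27, a co-stimulatory receptor, ranged from 0 to 1.73 CPM in veh-treated and from 0 to 1.15 CPM in cort-treated libraries.

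None of the 6 B cell genes tested in eWAT was called for cort on the NPD, on the HPD or on average. Ighm, the constant region of the IgM heavy chain (GRCm38, chromosome 12, 113418558 to 113422730, minus strand), was at 230, 143, 340 and 531 CPM in Veh NPD and 151, 336, 185 and 342 in Cort NPD. Veh HPD had 324, 185, 223 and 160 CPM and Cort HPD 154, 243, 244 and 206. The groups overlapped on both diets, and the mean effect was -0.19 ± 0.28 (adjusted p = 0.727). Igkc, the constant region of the kappa light chain, overlapped as well, at 14.5 to 74.4 CPM with veh and 5.36 to 85.9 with cort (-0.39 ± 0.44, adjusted p = 0.624).

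Jchain, which joins the units of IgM and IgA as plasma cells secrete them, was at 2.10, 1.64, 4.03 and 4.82 CPM in Veh NPD and 4.69, 2.11, 1.97 and 2.23 in Cort NPD. Veh HPD had 4.82, 8.10, 7.40 and 4.09 CPM and Cort HPD 3.31, 1.90, 4.32 and 2.64. The mean effect was -0.59 ± 0.31 (adjusted p = 0.220).

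The other B cell genes tested in fat were low apart from 1 library. Ighd, the constant region of the IgD that naive B cells carry, was at 0.803, 1.12, 13.9 and 0.896 CPM in Veh NPD, 2.54, 1.25, 0.489 and 1.17 in Veh HPD, 0.136, 0.363, 0.158 and 1.69 in Cort NPD and 1.05, 1.16, 0.199 and 0.322 in Cort HPD. Cd79b, a signalling chain of the B cell receptor, was at 2.16, 0.447, 7.39 and 0.276 CPM in Veh NPD and at 0 to 0.836 in the other 12 libraries. Ms4a1, the CD20 antigen, was at 2.29, 0, 6.72 and 0.620 CPM in Veh NPD and at 0 to 1.94 in the other 12. Replicate 3 of Veh NPD was the highest for all 3 genes, and lymph node stroma genes summed to 26.9 CPM in it, against 0.679 to 3.10 in the others of its group. That list holds Cxcl13, and summed to 32.0 to 46.5 CPM in Cort NPD. Its part in these values was not tested. With it the mean effect on Ighd was -1.93 ± 0.69 (adjusted p = 0.0587) and without it -0.85 (adjusted p = 0.539). Of the B cell genes too scarce to test, Cd22, an inhibitory receptor, had 72 counts in Veh NPD and 0 in Cort NPD, at least 21.3-fold lower, but 63 of the 72 were from the same replicate 3. Cd22 had 19 counts in Veh HPD and 22 in Cort HPD, 21 of the latter in replicate 4, the library with epididymal RNA. Cxcr5, Blk and Cd79a had 67, 30 and 12 counts in all 16 libraries.

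**Figure D4:**
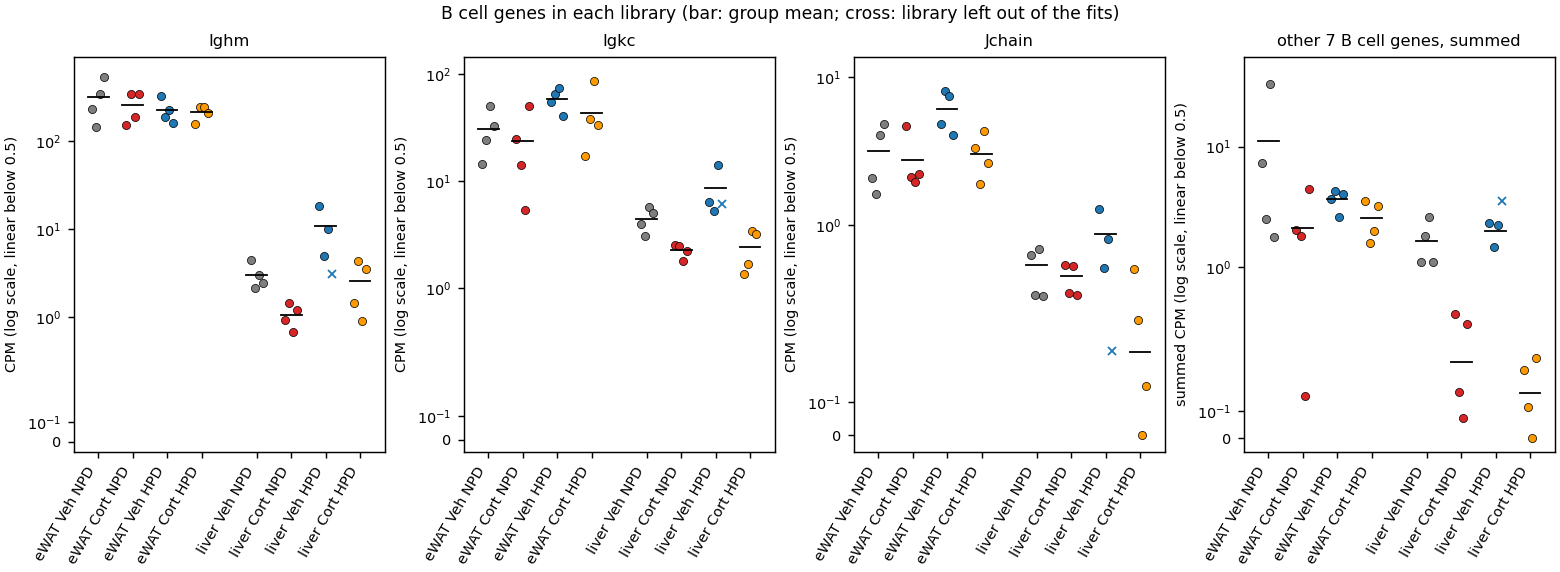
Level of B cell genes in every library (vertical axes: CPM, log scale that turns linear below 0.5; horizontal axis: the 4 groups in eWAT and in liver; last panel: the sum of the 7 B cell genes other than Ighm, Igkc and Jchain). Points are libraries, bars group means and the cross is the left-out liver library. In fat Ighm overlaps between treatments (143 to 531 CPM with veh, 151 to 342 with cort), whereas in liver the cort-treated libraries of each diet (0.681 to 1.47 and 0.918 to 4.36 CPM) lie below the veh-treated ones of that diet (2.12 to 4.51 and 4.93 to 18.1 CPM).

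None of the lymphocyte genes of fat was called for the diet by edgeR's test, in veh-treated mice, in cort-treated mice or as an interaction with cort. Unadjusted p-values under 0.05 were seen for 2 of the 26 genes in veh-treated mice, 1 higher on the HPD and 1 lower. They were seen for 4 in cort-treated mice, 3 higher and 1 lower, and for 2 in the interaction, both above 0. The share of all genes under this unadjusted threshold was not counted, so these counts are not a result about the lymphocyte genes. DESeq2 called 0 in each of these comparisons too. Of all genes tested, 0.0593%, 0.487% and 0.0132% were called at the adjusted threshold by edgeR's test. In veh-treated fat, Trac was lower on the HPD and Klrb1c higher on the HPD in every library, without overlap, as were 2.22% and 2.06% of all genes in those directions. The medians of the interaction (the cort effect on the HPD minus that on the NPD) were 0.997 over the 26 genes and 0.0213 over all genes. For Ccl5 the interaction was 1.14 ± 0.63 (adjusted p = 0.968).

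In liver, 7 of the 11 lymphocyte genes tested fell with cort on the NPD, and 0 rose, against 5.79% of all 12391 genes that fell and 6.84% that rose. On the HPD 5 of 11 fell and 0 rose, against 5.14% and 4.75%. For the mean of both diets 9 of 11 fell and 0 rose, against 9.68% and 10.7%. The median of the mean effect was -2.11 over the 11 genes and -0.00747 over all genes. The genes that fell on the NPD were the T cell genes Trbc2 and Trac, all 4 tested NK and cytotoxic genes (Ccl5, Gzma, Il2rb and Nkg7) and Cd52. On the HPD they were Trbc2, Il2rb, Cd52 and both tested B cell genes, Ighm and Igkc. Trbc2, Nkg7 and Cd52 were lower in each of the 8 cort-treated than in each of the 7 veh-treated libraries, which held for 1.76% of all genes tested.

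Trbc2 was at 4.27, 2.97, 2.51 and 2.54 CPM in Veh NPD liver and at 0.231, 0, 0 and 0 CPM in Cort NPD. The 141 counts against 3 gave a ratio of 56.1 (95% counting interval 18.8 to 275; adjusted p = 1.36e-05). On the HPD it was at 1.12, 1.90 and 3.99 CPM in the 3 veh-treated libraries and 0.170, 0.233, 0.536 and 0.223 in the cort-treated ones, a fall of 2.97 on the log2 scale (SE 0.58, adjusted p = 0.00204). No cort-treated liver library reached the lowest veh-treated one.

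Trac, the constant segment of the T cell receptor alpha chain (GRCm38, chromosome 14, 54220521 to 54224206, plus strand), was at 0.711, 0.956, 0.779 and 1.44 CPM in Veh NPD and 0, 0, 0 and 0.243 in Cort NPD, a fall of 3.60 on the log2 scale (SE 0.92, adjusted p = 0.0138). On the HPD it was at 0.0558, 0.173 and 0.608 CPM with veh and at 0 in all 4 libraries with cort, at least 5.02-fold lower (adjusted p = 0.0532). Cd3d, a chain of the CD3 complex, fell by 2.11 on the log2 scale for the mean of both diets (SE 0.67, adjusted p = 0.0275), at 0.0866 to 0.869 CPM with veh on the NPD, 0.167 to 0.864 with veh on the HPD, and 0 to 0.383 with cort. This call was lost when any 1 of 3 libraries was left out (adjusted p up to 0.0724). Cd4 was not called in liver (-0.86 ± 0.48, adjusted p = 0.223), at 0.691 to 2.60 CPM with veh and 0.0608 to 2.46 with cort.

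The other 10 T cell genes were too scarce to test in liver. Cd3e had 8 counts in Veh NPD and 0 in Cort NPD, and 10 in Veh HPD and 1 in Cort HPD. Cd3g had 19 counts in Veh NPD and 4 in Cort NPD, with 19 and 2 on the HPD, and Trbc1 had 37 and 4 on the NPD and 17 and 3 on the HPD. Over the 15 libraries Lck had 36 counts, Cd28 62, Il7r 25, Ccr7 11, Cd8b1 10, Cd8a 7 and Foxp3 0. Of these, Cd28 was the one with more counts in cort-treated than in veh-treated libraries, 42 against 20.

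All 4 NK and cytotoxic genes tested in liver fell on the NPD. Il2rb was at 0.711, 1.59, 1.30 and 0.254 CPM in Veh NPD, 0.308, 0, 0 and 0.122 in Cort NPD, 1.95, 1.04 and 1.55 in Veh HPD and 0.170, 0.349, 0.306 and 0.0742 in Cort HPD. Its log2 fold changes were -3.005 ± 0.77 on the NPD (adjusted p = 0.0118) and -2.68 ± 0.69 on the HPD (adjusted p = 0.0151); leaving out Veh HPD replicate 1 ended the call on the HPD (adjusted p = 0.0802). Gzma was at 0.948, 1.38, 0.173 and 0.338 CPM in Veh NPD, 0, 0, 0.0757 and 0.243 in Cort NPD, 0.725, 0.605 and 0.405 in Veh HPD and 0.170, 0.0581, 0.153 and 0 in Cort HPD. Its fall of 2.84 on the NPD (SE 0.88, adjusted p = 0.0352) was lost with any 1 of 3 libraries left out (adjusted p up to 0.0873), while its mean effect was -2.70 ± 0.63 (adjusted p = 0.00393). Nkg7 was at 0.395 to 1.47 CPM in Veh NPD, 0 to 0.173 in Cort NPD, 0.203 to 0.335 in Veh HPD and 0 to 0.170 in Cort HPD, with a mean effect of -2.48 ± 0.63 (adjusted p = 0.00666).

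Of the cytotoxic genes too scarce to test in liver, Klrb1c had 34 counts in Veh NPD and 1 in Cort NPD, a ratio of 40.6 (95% counting interval 6.81 to 1649). Klrd1 had 28 counts and 0, at least 11.1-fold lower with cort. Ncr1 had 9 counts in Veh NPD, 3 in Veh HPD and 0 in all 8 cort-treated libraries, Gzmb had 19 counts with veh and 5 with cort, and Prf1 had 1 count in all.

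Ccl5 was the one lymphocyte gene of liver that edgeR's test called for the diet, in cort-treated mice. It was at 1.11, 2.97, 0.779 and 1.94 CPM in Veh NPD and 0.462, 0.345, 0.606 and 0.182 in Cort NPD, a fall of 2.07 on the log2 scale (SE 0.49, adjusted p = 0.00695). On the HPD it was at 2.18, 1.73 and 2.23 CPM with veh and 2.12, 1.40, 4.05 and 2.30 with cort (0.26 ± 0.43, adjusted p = 0.760). In cort-treated mice it was higher on the HPD than on the NPD by 2.62 on the log2 scale (SE 0.48, adjusted p = 0.00175), where 3.08% of all genes were called higher. The 4 libraries of each diet did not overlap, as held for 6.61% of all genes in that direction. The interaction of diet and cort was 2.33 ± 0.66 and did not pass the test over all genes (adjusted p = 0.170). By edgeR's test, no other lymphocyte gene was called for the diet in liver, in veh-treated or cort-treated mice or as an interaction; 0.169% of all genes were called for the diet in veh-treated mice, 5.88% in cort-treated mice and 0.113% for the interaction. In veh-treated mice 4 of the 11 genes had an unadjusted p-value under 0.05, 2 higher on the HPD and 2 lower. In cort-treated mice 4 had one, all higher on the HPD, and for the interaction 3 had one, all above 0. The share of all genes under this unadjusted threshold was not counted, so these counts are not a result about the lymphocyte genes. DESeq2 called 1 in veh-treated mice, 1 for the interaction and 2 in cort-treated mice.

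**Figure D5:**
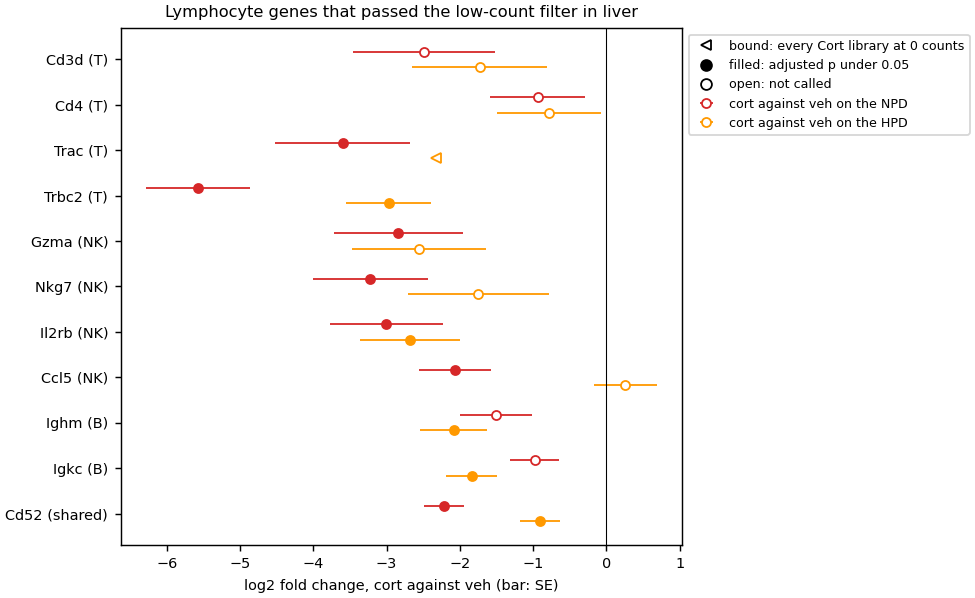
Log2 fold change of cort against veh in liver for the 11 lymphocyte genes that passed the low-count filter (horizontal axis: log2 fold change with SE; red: NPD, orange: HPD; filled: adjusted p under 0.05; triangle: bound for Trac, at 0 in every Cort HPD library). The red point of Ccl5 lies at -2.07 and the orange one at 0.26, and all other points lie left of 0.

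Cd52 in liver was at 19.4, 24.1, 11.1 and 12.6 CPM in Veh NPD and 2.85, 2.59, 3.56 and 5.29 in Cort NPD, a fall of 2.21 on the log2 scale (SE 0.27, adjusted p = 9.08e-06). On the HPD it was at 12.6, 12.4 and 12.2 CPM with veh and 9.75, 5.29, 6.35 and 5.12 with cort, a fall of 0.91 (SE 0.27, adjusted p = 0.0381). This call was lost when any 1 of 6 libraries was left out (adjusted p up to 0.103), and the interaction of 1.30 ± 0.39 was not called (adjusted p = 0.190). Cd2, Cd27 and Ltb were too scarce to test, with 32, 27 and 27 counts in the 15 libraries.

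Both immunoglobulin genes tested in liver fell with cort for the mean of both diets. Ighm was at 4.51, 2.12, 3.03 and 2.45 CPM in Veh NPD and 0.924, 1.47, 0.681 and 1.22 in Cort NPD (-1.50 ± 0.49, adjusted p = 0.0535). On the HPD it was at 18.1, 4.93 and 9.93 CPM with veh and 1.44, 4.36, 0.918 and 3.49 with cort, a fall of 2.09 on the log2 scale (SE 0.45, adjusted p = 0.00675), which leaving out Veh HPD replicate 1 took past the threshold (adjusted p = 0.0561). Igkc was at 4.03, 3.08, 5.71 and 5.07 CPM in Veh NPD, 2.54, 2.50, 1.82 and 2.25 in Cort NPD, 6.42, 5.27 and 14.3 in Veh HPD and 1.36, 1.69, 3.44 and 3.19 in Cort HPD. It fell by 1.84 on the log2 scale on the HPD (SE 0.35, adjusted p = 0.00144), and on the NPD the value was -0.98 ± 0.34 (adjusted p = 0.0605). For both genes the cort-treated libraries of a diet were all below its veh-treated ones. This held for 9.09% of all genes on the NPD and 10.5% on the HPD. The mean effects were -1.79 ± 0.33 for Ighm (adjusted p = 0.000862) and -1.41 ± 0.24 for Igkc (adjusted p = 0.000210).

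The other 8 B cell genes had too few counts in liver to be tested. Ighd had 29 counts in Veh NPD and 1 in Cort NPD, a ratio of 34.6 (95% counting interval 5.74 to 1414), and 14 and 1 on the HPD. Cd79b had 11 counts and 3 on the NPD and 29 and 2 on the HPD, and Ms4a1 had 10 and 2, and 10 and 1. Jchain was at 0.423 to 0.693 CPM in Veh NPD, 0.426 to 0.539 in Cort NPD, 0.519 to 1.28 in Veh HPD and 0 to 0.509 in Cort HPD. Cd22 had 58 counts in the 15 libraries, Cxcr5 11 and Blk 9. Cd79a, the partner chain of Cd79b, had 0 counts in the 15 liver libraries.

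The cort effect was then compared between tissues in a single fit of both, as the mean effect in liver minus that in eWAT. The labels do not say whether fat and liver libraries came from the same mice, and the fit treated all 31 as separate. Of the 27 lymphocyte genes tested in that fit, 4 differed, and of all 16482 genes 7.76% did. Trbc2 (-2.33 ± 0.65, adjusted p = 0.0205), Trac (-4.42 ± 1.40, adjusted p = 0.0467) and Ighm (-1.61 ± 0.48, adjusted p = 0.0371) had a more negative effect in liver, and Ccl5 (1.86 ± 0.50, adjusted p = 0.0146) a more negative effect in fat. In liver Trac was at 0 in every Cort HPD library and Trbc2 at 3 counts in Cort NPD, so the sizes of their differences depend on how the fit treats values near 0. Leaving out 1 library at a time, the call of Trac was lost in 22 fits (adjusted p up to 0.137), that of Ighm in 16 (up to 0.103) and that of Trbc2 in 1, without liver Veh HPD replicate 3 (0.0619), whereas that of Ccl5 was kept in each. With limma voom the calls of Ccl5 (adjusted p = 0.0938), Ighm (0.191) and Trac (0.207) were lost, and that of Trbc2 was not (0.0473). Igkc was not called for the difference (-1.02 ± 0.56, adjusted p = 0.323).

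Further genes of the same cells were read from lists written by hand from general knowledge. Of 26 other T cell genes, 14 were tested in eWAT, and for the mean cort effect, for which 7.41% of all genes fell in eWAT and 9.68% in liver, 2 fell and 0 rose: Thy1, a surface marker of T cells that stromal cells also carry (-1.46 ± 0.20, adjusted p = 5.03e-06), and Cd247, the CD3 zeta chain (-1.49 ± 0.27, adjusted p = 0.000272). In fat the 26 genes summed to 15.8 to 31.1 CPM in Cort NPD and to 16.6 to 69.3 CPM in Cort HPD. The highest was replicate 4 of Cort HPD, the library with epididymal RNA. The calls in fat include that library, and calls of this list without it are not given. In liver 5 were tested, of which the chemokine receptor Cxcr6 (adjusted p = 0.000837) and the co-stimulator Icos (-1.43 ± 0.44) fell. Of 20 other NK and cytotoxic genes, 3 of 11 tested fell in fat (7.41% of all genes) and 0 rose: Klrb1b, which was at 0 in the 8 cort-treated libraries, Klrk1, the activating receptor NKG2D (-1.98 ± 0.56, adjusted p = 0.0147), and Tyrobp, an adaptor that macrophages share (-0.33 ± 0.09, adjusted p = 0.0160). In liver all 5 tested fell (9.68% of all genes), the chemokine Xcl1, Klrk1 (-2.64 ± 0.42), the inhibitory receptor Klrc1, Tyrobp (-0.96 ± 0.21) and Fcer1g (-0.69 ± 0.17).

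Of 25 other B and plasma cell genes, 4 of 18 tested in fat fell with cort (7.41% of all genes) and 0 rose: the B cell scaffold Bank1 (-1.25 ± 0.29, adjusted p = 0.00272), Cd180 (-1.20 ± 0.32, adjusted p = 0.00896), Spib and Fcrla. In liver 6 of 8 fell (9.68% of all genes) and 0 rose, among them the transcription factor Spib, the lambda light chain segment Iglc3, at 0 in Cort NPD, Cd37 (-1.77 ± 0.45) and Blnk (-1.59 ± 0.48). Cd37 is also among the marker genes of all leukocytes summed below. Of 16 genes for homing and survival of lymphocytes, 5 of 13 tested in fat fell and 1 rose, against 7.41% and 8.13% of all genes. Cxcl12, a chemokine of stromal cells (-1.02 ± 0.14), Il2rg, the common cytokine receptor gamma chain (-1.27 ± 0.24), and Klf2 (-0.46 ± 0.12), with S1pr1 and Itgb7, fell, while Cxcl13, the chemokine that draws B cells, rose (2.73 ± 0.56, adjusted p = 0.00484). In liver 4 of 11 fell and 1 rose, against 9.68% and 10.7% of all genes: Il2rg (-1.94 ± 0.32), the integrin chain Itgb7 (-2.64 ± 0.47) and Cxcl13 (-1.25 ± 0.26), with Klf2, fell, and Bcl2l11, which encodes the pro-apoptotic protein BIM (0.80 ± 0.17), rose.

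Genes of other cells moved alongside. For all leukocytes together, 8 marker genes summed to 150 to 249 CPM in veh-treated and 94.0 to 148 CPM in cort-treated fat, and to 23.3 to 41.6 and 7.85 to 19.4 CPM in liver. The 10 macrophage genes summed to 1359 to 1646 CPM with veh and 1247 to 1793 with cort in fat, an overlap, and to 290 to 419 and 155 to 317 CPM in liver. The 8 dendritic cell genes were at 39.9 to 70.2 CPM with veh and 19.6 to 34.9 with cort in fat. In liver these were at 58.3 to 72.0 CPM in Veh NPD and 38.3 to 52.8 in Cort NPD, but at 66.9 to 88.8 in Veh HPD and 74.7 to 123 in Cort HPD. Stromal progenitor genes summed to 3591 to 4255 CPM with veh and 2245 to 2807 with cort in fat. Since CPM are shares of a library, the hepatocyte sum bears on those of liver: it was 56950 to 93750 CPM with veh and 86610 to 228600 with cort. Red blood cell genes summed to more in Cort HPD (12690 to 25860 CPM in fat) than in the other fat groups (3619 to 9274). The part of these in the lymphocyte values was not tested.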

How the data were processed

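Gene levels in eWAT and liver came from 32 QuantSeq 3′ libraries, 4 per group. The authors deposited a table of raw counts per Ensembl gene; their notes name GRCm38 (mm10), R 4.0.3 and limma, and the aligner and counting settings are not given in the sources used here. Of 47643 gene IDs, 47224 were paired with a symbol through the annotation. Low genes were removed (filterByExpr, minimum count 10, minimum total 15), counts were TMM-scaled within each tissue, and 1 model of 4 groups per tissue was fitted with edgeR's quasi-likelihood test (edgeR 4.0.16, R 4.3.3), with Benjamini-Hochberg adjustment over all genes. The steps were tested on simulated data. The difference between tissues used 1 fit of 31 libraries. Liver Veh HPD replicate 4 was left out of the fits, as in the study. No 2 libraries of a group were identical (45 pairs). Replicate numbers were shared by the groups but did not pair libraries: deviations of same-numbered libraries correlated at a median of -0.0118 in eWAT (24 pairs) and -0.0172 in liver (21 pairs), so no block was used.

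Bounds against groups at 0 counts take 3 counts over the group as the floor. Ratios to groups of 1 to 3 counts carry a 95% exact interval, and both cover counting error only. Library values are given in full for up to 4 genes of each kind in eWAT and 2 in liver, those with the smallest p for the mean cort effect; others were named by their role or after their values were seen. The genes and lists were chosen with earlier results of these data known. Alternatives were DESeq2 1.42.0, limma 3.58.1 (voom), other scalings, no filter, only the 2 groups compared, a replicate block, all 16 liver libraries and leaving out each library. Promoters were from RefSeq (GRCm38.p6). A result for 1 gene of the other T cell list is not reported here.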

Additional observations from a re-analysis of the deposited data

Results flagged for a closer look

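Of 110 groups of 4 libraries checked for a library far from the others, 11 held one. How many are to be had by chance is not known for counts this low. A group with all libraries but 1 at 0 is always marked, and the sums share genes with the single-gene groups. In eWAT, Ighd was at 13.9 CPM in Veh NPD replicate 3, against 0.803 to 1.12 in the others of its group, and at 1.69 CPM in Cort NPD replicate 4, against 0.136 to 0.363. Jchain was at 4.69 CPM in Cort NPD replicate 1 (others 1.97 to 2.23). In Cort HPD, Trbc2 stood at 3.05 CPM in replicate 2 (others 0.997 to 1.09), Klrd1 at 1.58 CPM in replicate 2 and Ccr7 at 1.03 CPM in replicate 4 (others at 0 for both genes). The NK and cytotoxic genes summed to 98.7 CPM in Cort HPD replicate 4, against 2.39 to 8.32 in its group, most of it Klrb1c. In liver, the T cell genes summed to 10.9 CPM in Veh NPD replicate 1 (others 8.03 to 8.48) and the NK and cytotoxic genes to 9.24 CPM in Veh NPD replicate 2 (others 4.68 to 5.45). Trbc2 was at 0.231 CPM in Cort NPD replicate 1 and Trac at 0.243 CPM in Cort NPD replicate 4, with the others of the group at 0.

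The cort effect differed between the tissues for 4 genes, as liver minus eWAT on the log2 scale: Ccl5 by 1.86, Trbc2 by -2.33, Ighm by -1.61 and Trac by -4.42. The liver library left out of the fits, Veh HPD replicate 4, held more RNA of NK and cytotoxic genes (17.7 CPM summed) than the other 7 veh-treated livers (4.41 to 9.24), and more of the shared lymphocyte genes (35.5 against 12.4 to 25.1 CPM).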

How the results depend on the processing

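Counts of lymphocyte genes called in eWAT for the NPD (6) and for the mean of both diets (8) stayed within 1.5 times of these values under all alternatives, at 5 to 9 and 6 to 10, and the 0 calls for diet in fat stayed 0. On the HPD in fat, the 1 call became 2 with DESeq2 and 1 to 3 with a library left out; it was 3 without Cort HPD replicate 4, 2 without Cort HPD replicate 2 and 2 without Cort NPD replicate 3. In liver, keeping low-count genes raised the calls from 7 to 12 on the NPD, from 5 to 8 on the HPD and from 9 to 18 on average, because more genes were tested, and from 1 to 2 for the diet in cort-treated mice. With a library left out these were 5 to 12 (12 without Veh HPD replicate 2), 4 to 6, 7 to 12 and 1 to 2. DESeq2 gave 1 in place of 0 for the diet in veh-treated livers, 2 in place of 1 in cort-treated livers and 1 in place of 0 for the interaction. The count of genes that differed between tissues, 4, became 2 with limma voom and 2 to 5 with a library left out (2 without each of 9 libraries). Of the 4 named genes, limma voom kept Trbc2 alone, so its other call was of another lymphocyte gene. A pair of effects near 0, neither called, changed sign: Ms4a1 on the HPD in fat, at 0.09, was -0.54 with limma voom, -1.04 with the replicate block, -0.35 without Cort HPD replicate 1 and -0.13 without replicate 3 (-0.35 to 0.48 with any library left out), and Jchain on the NPD in fat, at -0.19, was 0.078 without Veh NPD replicate 4 (-0.58 to 0.078 with any library left out). The causes of changes other than the one given were not tested.

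With the replicate block the calls were 5 and 8 for the NPD and the mean in fat and 6, 4 and 9 for the NPD, the HPD and the mean in liver. The block ended the calls of Il2rb on the NPD (adjusted p = 0.0611) and of Trbc1 on average (0.0822) in fat, of Gzma on the NPD (0.0747) and Cd52 on the HPD (0.0616) in liver, and of the Trac difference between tissues (0.0586). Few counts limit these genes: 11 of 37 in eWAT and 26 of 37 in liver could not be tested, and a difference missed there may be below what this depth can show.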
